A study of Homo sapiens with 9 samples.

Results

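The 10 genes described here are regulators of the BCL2 family, which set whether a cell commits to apoptosis through its mitochondria: the pro-survival genes BCL2, BCL2L1 and MCL1, the pore-forming effectors BAX and BAK1, and the BH3-only genes BID, BCL2L11, BBC3, PMAIP1 and BAD. They were chosen by symbol from a table of 56809 genes by their role in the family, and all 10 were present and passed the filter on low counts. RNA was sequenced from MDA-MB-468, an established human breast adenocarcinoma line of the basal, triple-negative type. Control cells carried the empty hairpin vector pSicoR, and the other cells carried 1 of 2 short hairpins named for the transcription cofactor LMO2, shLMO2-1 or shLMO2-2, with 3 libraries in each group. All libraries come from this 1 line, all cells were infected, and no other treatment or time is given. Nothing in the labels says that the libraries of a group came from separate cultures, so the p-values measure the spread between these libraries, which may be technical.

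As background, pro-survival members hold BAX and BAK1 inactive at the outer mitochondrial membrane. BH3-only proteins bind the pro-survival members or activate the effectors, after which BAX and BAK1 form pores that release cytochrome c and lead to caspase activation. MCL1 protein is short-lived and BCL2L1 encodes both the long, protective BCL-xL and a short, pro-death splice form, so transcript levels of a gene give only part of the picture. The values here are per gene and do not separate splice forms.

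The 9 libraries held between 15494486 and 23069456 estimated counts. LMO2 itself was close to the detection limit, with 4, 35 and 19 estimated counts in the control libraries, 2, 1 and 6 with shLMO2-1, and 1, 4 and 3 with shLMO2-2. Its log2 fold change in the mean of both hairpins, the average of the changes with each hairpin, was -2.73 (95% interval -4.17 to -1.29, adjusted p = 0.0216). With shLMO2-1 alone it was -2.44 (adjusted p = 0.0907), which did not pass, and with shLMO2-2 alone -3.02 (adjusted p = 0.0441), a call kept in 10 of 19 alternatives. Here and below, p-values are from edgeR's quasi-likelihood test, are adjusted over all 14709 genes tested, and count as a call under 0.05. On the CPM scale, which divides each count by the scaled size of its library, control library 1, at 0.232 CPM, lay below the highest shLMO2-1 library, at 0.396 CPM. The fall of LMO2 in the mean was no longer called without control library 2, control library 3 or shLMO2-1 library 2, where the adjusted p reached 0.113. All 9 breast epithelial marker genes reached 1 CPM in every group, and PGR and CD3E were at 0 throughout. Summed over the list, epithelial markers ranged from 14107.3 to 15041.6 CPM in control and from 15751.5 to 17776.5 CPM with the hairpins. Leukocyte markers summed to at most 0.812 CPM in control and 2.25 CPM with the hairpins, and fibroblast markers to at most 14.2 and 17.1 CPM. Endothelial markers summed to 5.48 to 13.0 CPM in control, 12.5 to 17.7 CPM with shLMO2-1 and 8.13 to 10.9 CPM with shLMO2-2. In the mean of both hairpins, 12.4% of all genes tested were called. Among the markers, 4 of the 9 epithelial genes were called higher there. Some of these calls were lost in fits that left out a library, with an adjusted p of up to 0.12. Another 3 epithelial genes had negative values that were not called. They were CDH1 (-0.125, adjusted p = 0.106), EPCAM (-0.119, adjusted p = 0.142) and KRT5 (-0.098, adjusted p = 0.284). The 1 tested leukocyte gene (CD68) was called higher, and 1 of 2 tested hormone receptor and HER2 genes was called lower (ESR1). The ESR1 call was kept in 3 of the 9 fits that left out a library. CD68 had 40.8 estimated counts at most, and its call was lost when any 1 control library was left out. Of the fibroblast and endothelial genes tested, edgeR, DESeq2 and limma-voom called 0 in that mean, with 1 of each list at an unadjusted p under 0.05. With shLMO2-1 alone, DESeq2 and limma-voom each called 1 of the 3 endothelial genes and edgeR called 0. KRT5 was called lower with shLMO2-1 (log2 fold change -0.27, adjusted p = 0.0272) and differed between the hairpins (adjusted p = 0.0362). The part of these marker levels in the results below was not tested, and in bulk RNA a smaller number of cells of a type and less RNA per cell cannot be told apart.

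Levels of different genes were compared as CPM per kilobase of a reference transcript. MCL1 stood highest of the family in control cells, at 101.6 ± 3.6 CPM per kilobase (SD, n = 3), above 96.0% of the genes tested. BCL2, the founding member, stood lowest at 1.33 ± 0.356 CPM per kilobase, above 22.7% of the genes tested. Between them came BAD (40.2 ± 4.36), BID (37.0 ± 2.94), BAX (34.2 ± 2.21), BCL2L1 (30.4 ± 1.85), BAK1 (25.2 ± 3.41), PMAIP1 (17.1 ± 2.63), BCL2L11 (8.60 ± 0.306) and BBC3 (5.87 ± 1.00), each in CPM per kilobase with its SD over 3 control libraries. The control ranges of BAD and BID, of BID and BAX, and of BAX and BCL2L1 overlapped, and those of all other neighbours were separate. Within libraries, BAD was above BID and BAX above BCL2L1 in all 9, while BID was above BAX in 5 of 9, so BID and BAX could not be ordered. The order was the same with the longest transcript of each gene, although the level of PMAIP1 was then 11.1 CPM per kilobase.

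**Figure D1:**
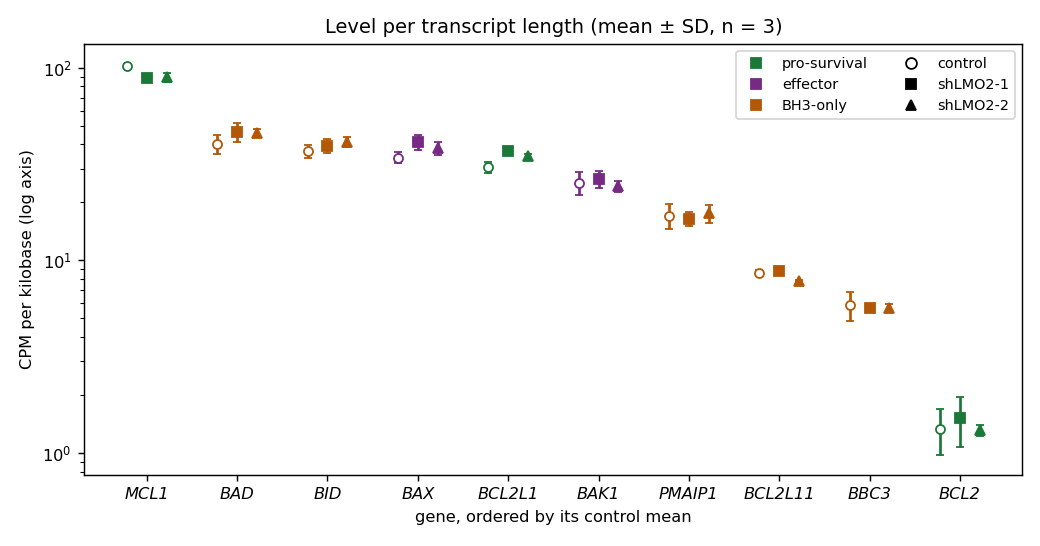
Level of each BCL2 family gene as CPM per kilobase of transcript (log axis), with the mean and SD of 3 libraries for control (open circles), shLMO2-1 (squares) and shLMO2-2 (triangles), coloured by role. MCL1 stands alone at the top and BCL2 alone at the bottom in every group, and the hairpin groups lie close to control for every gene.

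Among the pro-survival genes, BCL2L1 was higher and MCL1 lower in every hairpin library than in every control library, while BCL2 showed no such separation. BCL2L1 lies on the minus strand of chromosome 20 (chr20:31664452-31723989, GRCh38), where the lncRNA gene ABALON and AL117381.1 overlap it on the other strand. ABALON shares 99.857% of 700 bases with it and reached at most 2.92 CPM. BCL2L1 measured 74.2, 83.7 and 80.2 CPM in the control libraries, 96.0, 92.8 and 100.1 CPM with shLMO2-1, and 88.2, 92.3 and 91.7 CPM with shLMO2-2. The lowest hairpin library, at 88.2 CPM, was above the highest control library, at 83.7 CPM. BCL2L1 rose by a log2 fold change of 0.28 with shLMO2-1 (SE 0.0659, 95% interval 0.13 to 0.42, adjusted p = 0.0272), which is 21.3% higher. With shLMO2-2 the log2 fold change was 0.19 (SE 0.0656, adjusted p = 0.0937), which did not pass the threshold of 0.05. In the mean of both hairpins it rose by 0.24 (SE 0.0574, 95% interval 0.11 to 0.36, adjusted p = 0.0229), or 17.8%. The rise in the mean was no longer called without control library 1, control library 3, shLMO2-2 library 2 or shLMO2-2 library 3, and over 18 alternatives its adjusted p ranged from 0.00365 to 0.0759. The rise with shLMO2-1 was no longer called without control library 3 or any 1 of the 3 shLMO2-1 libraries, or with only the groups compared in the fit, and its adjusted p ranged up to 0.0956.

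MCL1, on the minus strand of chromosome 1 (chr1:150574551-150579738) with ADAMTSL4-AS1 overlapping it on the same strand, encodes a protein that binds the BH3-only proteins NOXA and BIM, the products of PMAIP1 and BCL2L11. It measured 409.0, 383.2 and 406.2 CPM in control, 337.0, 342.7 and 366.9 CPM with shLMO2-1, and 332.6, 353.2 and 366.8 CPM with shLMO2-2. The highest hairpin library, at 366.9 CPM, was below the lowest control library, at 383.2 CPM. In the mean of both hairpins MCL1 fell by 0.19 on the log2 scale (SE 0.0515, adjusted p = 0.0341), a level 0.876 times that of control with an interval of 0.81 to 0.947. The hairpins taken singly gave log2 fold changes of -0.20 (adjusted p = 0.0694) and -0.19 (adjusted p = 0.0784), neither past the threshold. Each passed it under scaling by total counts alone, under DESeq2 and with the replicate number as a block in the fit. The highest of these adjusted p-values was 0.0343, with shLMO2-2 under DESeq2. Total counts alone also shifted the median log2 fold change of all genes tested. That median went from 0.00091 to -0.036 with shLMO2-1 and from -0.00024 to -0.049 with shLMO2-2. The fall of MCL1 in the mean was no longer called after trends with GC content and transcript length were removed, where its log2 fold change was -0.13. It was also lost without control library 1 or 3, shLMO2-1 library 1 or 2, or shLMO2-2 library 1 or 2, and its adjusted p over 18 alternatives ran from 0.00738 to 0.126.

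BCL2 (chr18:63123346-63320128, minus strand) was the most variable member. It measured 12.8, 7.59 and 9.41 CPM in control, 15.0, 10.5 and 8.57 CPM with shLMO2-1, and 9.92, 10.4 and 9.07 CPM with shLMO2-2. Its 3 groups overlapped throughout. The log2 fold change in the mean of both hairpins was 0.09, with an interval of -0.33 to 0.51 (adjusted p = 0.803). Libraries of 1 group differed by a coefficient of variation of 23.1%, against 7.12% expected from counting alone. BCL2L11 had the smallest such value, 3.37%, close to its counting error of 3.50%.

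**Figure D2:**
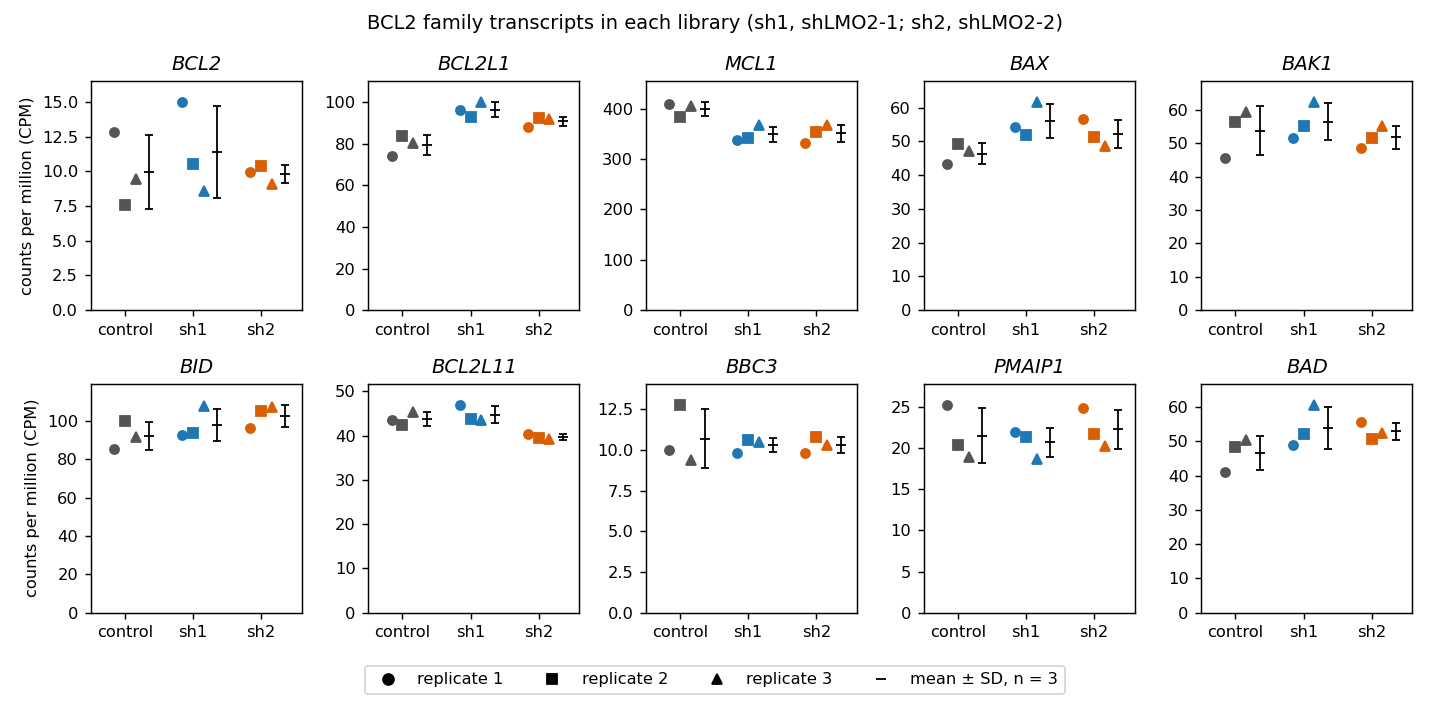
CPM of each BCL2 family gene in the 9 libraries (points, shaped by replicate number), with the mean and SD of each group of 3 beside them; each panel has its own axis from 0. Hairpin libraries of BCL2L1 all lie above control and those of MCL1 all below it, while the groups of BCL2, BAK1, BBC3 and PMAIP1 overlap.

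The sequence just before a start site is shown for BCL2L1, BAX and BCL2L11: BCL2L1 is the called member with such an entry in the RefSeq table used, BAX had the larger fold change of the effectors, and BCL2L11 had the smallest p between the hairpins. MCL1 has no entry there. The sequences are from RefSeq (GRCh38.p14) and cover the upstream bases that no GENCODE exon covers, 5′ to 3′ on the strand of the gene, with the motif letters in capitals. BCL2L1 is chr20:31723990-31724213 on the minus strand, BAX is chr19:48954625-48954814 on the plus strand, and BCL2L11 is chr2:111120664-111120913 on the plus strand.
BCL2L1: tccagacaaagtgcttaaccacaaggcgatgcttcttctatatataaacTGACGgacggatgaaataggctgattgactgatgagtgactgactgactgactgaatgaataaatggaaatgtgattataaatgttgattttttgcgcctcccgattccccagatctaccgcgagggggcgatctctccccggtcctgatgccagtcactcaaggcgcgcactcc
BAX: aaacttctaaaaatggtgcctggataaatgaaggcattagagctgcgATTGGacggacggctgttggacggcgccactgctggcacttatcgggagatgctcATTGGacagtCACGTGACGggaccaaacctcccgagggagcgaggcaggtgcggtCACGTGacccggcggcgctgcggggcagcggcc
BCL2L11: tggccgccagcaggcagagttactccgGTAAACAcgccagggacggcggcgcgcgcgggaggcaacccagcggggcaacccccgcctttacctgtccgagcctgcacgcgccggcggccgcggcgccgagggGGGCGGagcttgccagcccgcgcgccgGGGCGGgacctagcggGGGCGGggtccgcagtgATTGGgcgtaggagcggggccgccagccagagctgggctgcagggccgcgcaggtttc

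In BCL2L1 the capitals mark TGACG, the core of the site read by CREB and ATF factors. In BAX they mark 2 copies of CCAAT read on the other strand (ATTGG) and 2 copies of the E-box CACGTG, the first of which overlaps TGACG. In BCL2L11 they mark TGTTTAC on the other strand (GTAAACA), 3 copies of the GC box GGGCGG, and CCAAT on the other strand. TGTTTAC is the core read by FOXO factors, which are known to activate BCL2L11. Over 250 upstream bases and both strands, TGTTTAC was found in 2.98% of the 35116 windows of all genes, CACGTG in 6.34%, TGACG in 21.2%, CCAAT in 32.0% and GGGCGG in 42.6%. Of the 9 members with a window (15 windows in all), TGTTTAC was found for BCL2L11 alone, CACGTG for BAX, BBC3 and BID, TGACG for 5, CCAAT for 5 and GGGCGG for 6. Counted by window, as the shares of all genes are, TGTTTAC was in 1 of the 15 and CACGTG in 4. By the same count TGACG was in 6, CCAAT in 6 and GGGCGG in 10. Some windows of the same gene overlap. BAX held 4 copies of CACGTG in its full window, of which the printed stretch shows 2. TTCNNNGAA, the form read by STAT factors, was in 6.57% of all windows and TGATGNAA, read by C/EBP-ATF pairs, in 3.14%; these letters were in none of the members' windows. TGANTCA, read by AP-1, was in 6.57% of all windows and, among the members, in that of BBC3. A match of letters is a description and shows no binding.

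Of the effectors, BAX was higher on average with both hairpins without passing the test, and the groups of BAK1 overlapped. BAX (chr19:48954815-48961798, plus strand), a cytosolic protein that moves to mitochondria when activated, measured 43.2, 49.1 and 47.1 CPM in control, 54.4, 51.8 and 61.7 CPM with shLMO2-1, and 56.6, 51.2 and 48.6 CPM with shLMO2-2. All 3 shLMO2-1 libraries were above control, whereas the lowest shLMO2-2 library, at 48.6 CPM, lay within the control range. The log2 fold change was 0.27 with shLMO2-1 (SE 0.0905, adjusted p = 0.0956), 0.17 with shLMO2-2 (adjusted p = 0.286) and 0.22 in the mean (95% interval 0.04 to 0.39, adjusted p = 0.0977). Removing trends with GC content and transcript length took the value in the mean to 0.08 (adjusted p = 0.503). No alternative called BAX in any of these comparisons.

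BAK1 (chr6:33572547-33580293, minus strand), which resides in the outer mitochondrial membrane, measured 45.6, 56.5 and 59.4 CPM in control, 51.6, 55.3 and 62.4 CPM with shLMO2-1, and 48.5, 51.6 and 55.3 CPM with shLMO2-2. Its groups overlapped, and the log2 fold change in the mean was 0.01 with an interval of -0.20 to 0.21 (adjusted p = 0.983). The processed pseudogene BAK1P1 shares 98.27% of 636 bases with it and had no counts in the deposited data. Whether it was measured at 0 or absent there was not told apart.

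No BH3-only gene passed the test in any comparison. BID (chr22:17734138-17774770, minus strand), which caspase-8 cleaves to link death receptors to mitochondria, measured 85.3, 99.9 and 91.4 CPM in control, 92.7, 93.7 and 107.5 CPM with shLMO2-1, and 96.2, 104.9 and 107.1 CPM with shLMO2-2. Control library 2 lay above several hairpin libraries, so the groups overlapped. Its log2 fold change in the mean was 0.12 (95% interval -0.04 to 0.28, adjusted p = 0.309).

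BAD (chr11:64269830-64284704, minus strand), which survival kinases hold inactive by phosphorylation, measured 40.9, 48.3 and 50.5 CPM in control, 49.0, 52.0 and 60.7 CPM with shLMO2-1, and 55.5, 50.6 and 52.5 CPM with shLMO2-2. The shLMO2-2 libraries were all above control, the lowest at 50.6 CPM against a highest control value of 50.5 CPM. The log2 fold change in the mean was 0.20 (95% interval 0.0026 to 0.39, unadjusted p = 0.0475, adjusted p = 0.174). It turned to -0.04 once trends with GC content and length were removed. BAD shares 278 identical bases with GPR137 on the other strand, a gene that reached 63.3 CPM, and whether strand was used in the counting is not given in the sources used here, so its reads may include those of GPR137.

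BCL2L11 (chr2:111119378-111168447, plus strand), which encodes BIM, was the one BH3-only gene whose libraries separated the hairpins. It measured 43.5, 42.3 and 45.4 CPM in control, 47.0, 43.8 and 43.4 CPM with shLMO2-1, and 40.4, 39.4 and 39.3 CPM with shLMO2-2. All 3 shLMO2-2 libraries were below all control and all shLMO2-1 libraries. The log2 fold change was 0.03 with shLMO2-1 (adjusted p = 0.825) and -0.14 with shLMO2-2 (SE 0.0685, adjusted p = 0.234). Between the hairpins it was -0.17 (95% interval -0.32 to -0.02, unadjusted p = 0.0287, adjusted p = 0.384). BCL2L11 shares 729 identical bases with MIR4435-2HG on the other strand, which reached 62.9 CPM, so its value is uncertain in the same way.

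BBC3 (chr19:47220822-47232766, minus strand) and PMAIP1 (chr18:59899948-59904306, plus strand) encode PUMA and NOXA, BH3-only proteins that are induced by cell stress. BBC3 ranged from 9.36 to 12.8 CPM in control, from 9.84 to 10.6 CPM with shLMO2-1 and from 9.83 to 10.8 CPM with shLMO2-2. Every hairpin library of BBC3 lay inside the control range. PMAIP1 measured 25.3, 20.4 and 18.9 CPM in control, 21.9, 21.4 and 18.7 CPM with shLMO2-1, and 24.9, 21.7 and 20.2 CPM with shLMO2-2. Its groups overlapped too. The log2 fold changes in the mean were -0.06 for BBC3 (95% interval -0.31 to 0.20, adjusted p = 0.79) and -0.0031 for PMAIP1 (95% interval -0.25 to 0.24, adjusted p = 0.992). Both intervals include a fall as large as that of MCL1.

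Counted over the family, 1 of 10 members was called with shLMO2-1 (BCL2L1), where 8.42% of all 14709 genes tested were called. With shLMO2-2, edgeR called 0 of 10, where 8.97% of all genes were called; limma-voom called 0, DESeq2 called 1 (MCL1), and 2 members, BCL2L1 and MCL1, had an unadjusted p under 0.05, as did 24.9% of all genes. In the mean of both hairpins 2 of 10 were called, BCL2L1 higher and MCL1 lower, beside 12.4% of all genes. The median log2 fold change of the 10 members there was 0.048, and that of all genes tested was -0.0021. With 10 genes, these counts are near the background share. Libraries did not overlap in the same direction for both hairpins for BCL2L1 (higher, as for 8.12% of all genes) and MCL1 (lower, as for 8.59%). With shLMO2-1 alone, BCL2L1 and BAX were wholly above control, as were 14.0% of all genes, and MCL1 was wholly below, as were 14.3%. With shLMO2-2 alone, BCL2L1 and BAD were wholly above control, as were 15.3% of all genes, and MCL1 and BCL2L11 wholly below, as were 14.5%. The comparisons with each hairpin share the same 3 control libraries.

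**Figure D3:**
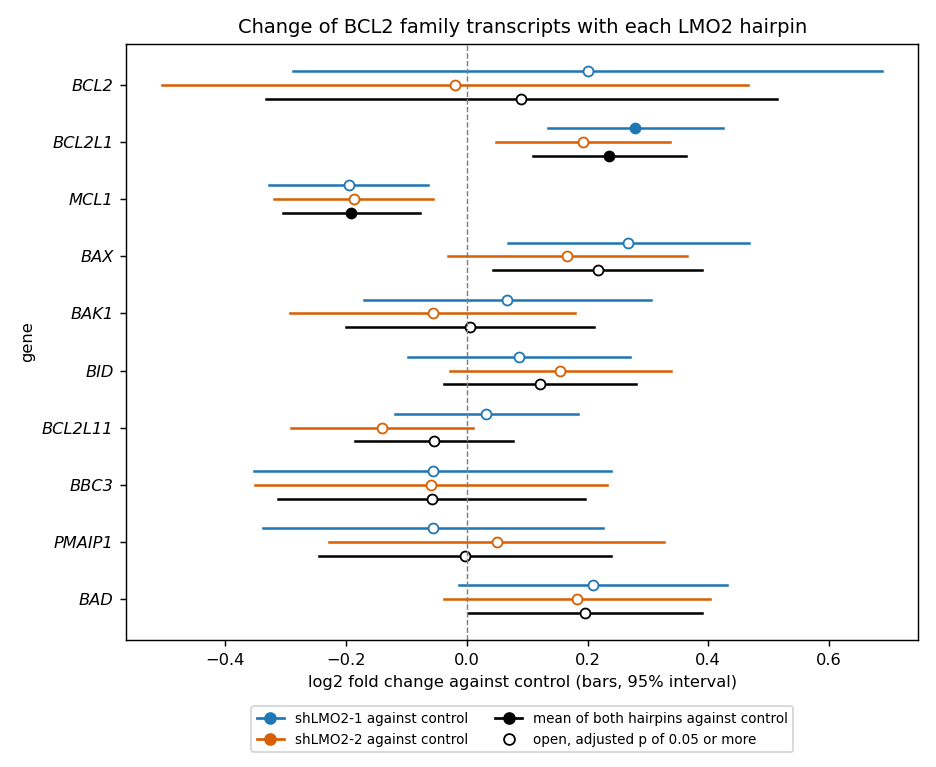
Log2 fold change of each BCL2 family gene against control from edgeR (points) with its 95% interval (bars) for shLMO2-1, shLMO2-2 and the mean of both; filled points passed an adjusted p of 0.05. BCL2L1 is filled for shLMO2-1 (0.28) and the mean (0.24), MCL1 is filled for the mean (-0.19), and the other 8 genes are open throughout.

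An exact two-sided permutation test of log2 CPM cannot give a p under 0.1 with 3 libraries against 3. Of the 30 such tests, over 10 members and 3 comparisons of 2 groups, 9 reached that value, and the smallest p after Benjamini-Hochberg adjustment was 0.333. The tests at 0.1 were BCL2L1 in all 3 comparisons, MCL1 with each hairpin, BAX with shLMO2-1, BAD with shLMO2-2, and BCL2L11 with shLMO2-2 and between the hairpins.

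The hairpins were not shown to differ in any member. Between shLMO2-2 and shLMO2-1 edgeR called 0 of 10 members, as did DESeq2 and limma-voom, where 0.768% of all genes were called by edgeR. BCL2L11 alone had an unadjusted p under 0.05, as did 10.6% of all genes. BCL2L1 and BCL2L11 were wholly lower with shLMO2-2 than with shLMO2-1, as were 9.12% of all genes. For BCL2L1 that log2 difference was -0.09 (95% interval -0.23 to 0.06, adjusted p = 0.742). For MCL1 it was 0.01 (95% interval -0.12 to 0.14, adjusted p = 0.983).

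The make-up of the pro-survival members' transcripts was described per library, in CPM per kilobase and without a test. It leaves out BCL2L2, a pro-survival relative outside the members. The shares and the sum rest mostly on the called members MCL1 and BCL2L1 and were not among the ratios planned. MCL1 made up 77.5%, 74.7% and 76.4% of the summed level of MCL1, BCL2L1 and BCL2 in control, 68.8%, 70.2% and 70.3% with shLMO2-1, and 70.7%, 71.0% and 72.0% with shLMO2-2. BCL2L1 took most of the remainder, 21.2%, 24.6% and 22.7% in control, 29.5%, 28.7% and 28.9% with shLMO2-1, and 28.2%, 27.9% and 27.1% with shLMO2-2. The sum itself was 133.3 ± 2.51, 127.1 ± 4.91 and 125.3 ± 5.08 CPM per kilobase in the same order, with a range that overlapped between control and shLMO2-1 and lay below control with shLMO2-2. BCL2 made up 0.997% ± 0.257 in control, and its range overlapped that of both hairpin groups.

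The ratio of MCL1 to BCL2L1, chosen after the values of both genes were seen, was 3.66, 3.04 and 3.36 in control, 2.33, 2.45 and 2.43 with shLMO2-1, and 2.50, 2.54 and 2.66 with shLMO2-2. The spread between libraries was wider in control, with an SD of 0.31 against 0.0643 and 0.0833 with the hairpins. BAX to BCL2 was 27.2 ± 8.55 in control, 28.8 ± 9.91 with shLMO2-1 and 29.3 ± 2.1 with shLMO2-2, with overlapping groups. PMAIP1 to MCL1 was 0.168 ± 0.0241, 0.185 ± 0.0232 and 0.199 ± 0.0312, again overlapping. BCL2L11 to MCL1 was 0.0847 ± 0.00219 in control, 0.0994 ± 0.00831 with shLMO2-1, where all libraries were above control, and 0.0877 ± 0.00564 with shLMO2-2, where they overlapped. BBC3 to BCL2L1 was 0.193 ± 0.026 in control, 0.153 ± 0.00874 with shLMO2-1 and 0.162 ± 0.00436 with shLMO2-2. In that last ratio all shLMO2-1 libraries were below control, and the lowest control library, at 0.167, equalled the highest shLMO2-2 library to 3 digits. The ratios to MCL1 and to BCL2L1 are divided by the called members and so also carry the changes of those genes. With shLMO2-1, edgeR gave log2 fold changes of 0.03 for BCL2L11 (adjusted p = 0.825) and -0.06 for BBC3 (adjusted p = 0.848). How often ratios of other genes separate in this way was not computed.

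**Figure D4:**
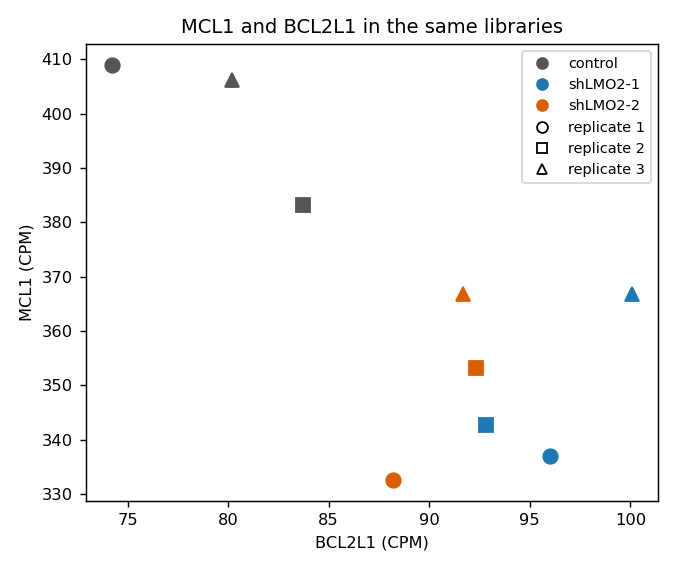
MCL1 (vertical axis, CPM) against BCL2L1 (horizontal axis, CPM) in the 9 libraries, coloured by group and shaped by replicate number; neither axis starts at 0. The 3 control libraries sit at the upper left, with BCL2L1 at 83.7 CPM or less and MCL1 at 383.2 CPM or more, apart from the 6 hairpin libraries.

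Of 13 other relatives of the family, 10 could be tested, and BCL2A1, BCL2L10 and BCL2L15 were too low. edgeR called 0 of the 10 and limma-voom called 0, DESeq2 called 2, and 3 had an unadjusted p under 0.05, with a list median log2 fold change of 0.073. This is the mean of both hairpins, where 12.4% of all genes were called. The pro-survival gene BCL2L2, which encodes BCL-w, measured 19.0 ± 3.3 CPM in control, 23.4 ± 1.21 with shLMO2-1 and 26.0 ± 3.52 with shLMO2-2 (log2 fold change 0.37, adjusted p = 0.0625). It was called in 5 of 18 alternatives, DESeq2 among them, with an adjusted p between 0.0103 and 0.225. BCL2L13, a mitochondrial membrane protein and mitophagy receptor, measured 70.8 ± 3.4, 60.1 ± 2.31 and 65.1 ± 1.64 CPM. It fell with shLMO2-1, by 0.24 on the log2 scale (adjusted p = 0.0464), and in the mean its value was -0.18 (adjusted p = 0.0567). The call with shLMO2-1 was kept in 8 of 19 alternatives, 1 of them with a library left out (control library 1), and its adjusted p reached 0.147. In the mean, BCL2L13 was called lower in 5 of 18 alternatives, DESeq2 among them. The BH3-only genes BMF (0.30), BIK (0.27) and HRK (-0.02) had adjusted p-values of 0.176, 0.422 and 0.978. The effector-like BOK (-0.07), the mitophagy receptors BNIP3 (0.13) and BNIP3L (0.01), and BCL2L12 (0.01) had adjusted p-values of 0.644, 0.307, 0.91 and 0.983. BCL2L14 was the largest at 0.72 (SE 0.347, adjusted p = 0.205), on 20 estimated counts at most. BOK was called lower in 1 of 18 alternatives, with GC content and length trends removed (-0.22, adjusted p = 0.03).

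Around the family, each apoptosis list held at most 2 genes that passed the test in the mean of both hairpins, where 12.4% of all genes tested were called. Of 13 caspases and mitochondrial death effectors 1 was higher, ENDOG, a mitochondrial nuclease, at 20.6 ± 4.18 CPM in control, 27.1 ± 3.5 with shLMO2-1 and 32.5 ± 5.26 with shLMO2-2 (log2 fold change 0.52, adjusted p = 0.0389). That call was lost in 7 of the 9 fits that left out a library, with an adjusted p of up to 0.0995. Of 5 inhibitors of apoptosis tested 1 was lower, BIRC2, which encodes the ubiquitin ligase cIAP1, at 129.3 ± 15.5, 106.4 ± 9.88 and 97.8 ± 0.916 CPM (-0.34, adjusted p = 0.0182). Of 10 genes of the death receptor pathway 2 were lower: TNFRSF10D, a decoy receptor for TRAIL, and RIPK1, an adaptor kinase. TNFRSF10D measured 9.27 ± 0.51, 4.42 ± 0.572 and 4.98 ± 1.12 CPM (-0.98, adjusted p = 0.00255), and RIPK1 measured 68.7 ± 2.16, 59.8 ± 4.31 and 58.7 ± 1.39 CPM (-0.21, adjusted p = 0.0395). The call of RIPK1 was kept in 9 of 18 alternatives and that of TNFRSF10D in all 18. The medians of these 3 lists were -0.05, -0.21 and -0.17 on the log2 scale.

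Of 13 factors and ubiquitin enzymes known to act on members, ATF4 rose and STAT3 fell in the mean of both hairpins, with a list median of 0.066. DESeq2 called 3 of the 13 there and limma-voom called 2. edgeR called 12.4% of all genes tested in that mean, and with 13 genes its count is near that share. STAT3, known to activate BCL2L1 and MCL1 in other settings, measured 433.3 ± 9.68, 364.1 ± 13.2 and 366.5 ± 3.0 CPM (-0.25, adjusted p = 0.00537). ATF4, a stress factor known to act on PMAIP1 and BBC3, measured 837.2 ± 46.1, 975.9 ± 60.6 and 974.0 ± 31.8 CPM (0.22, adjusted p = 0.0231). The ATF4 call was lost without control library 1, control library 3 or shLMO2-2 library 2, with an adjusted p of up to 0.0645. In the same mean, of 7 genes for outer membrane channels and for mitochondrial fission and fusion, edgeR, DESeq2 and limma-voom called 0. Of these 7 genes, 1 had an unadjusted p under 0.05 in edgeR, and the list median was -0.046.

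**Figure D5:**
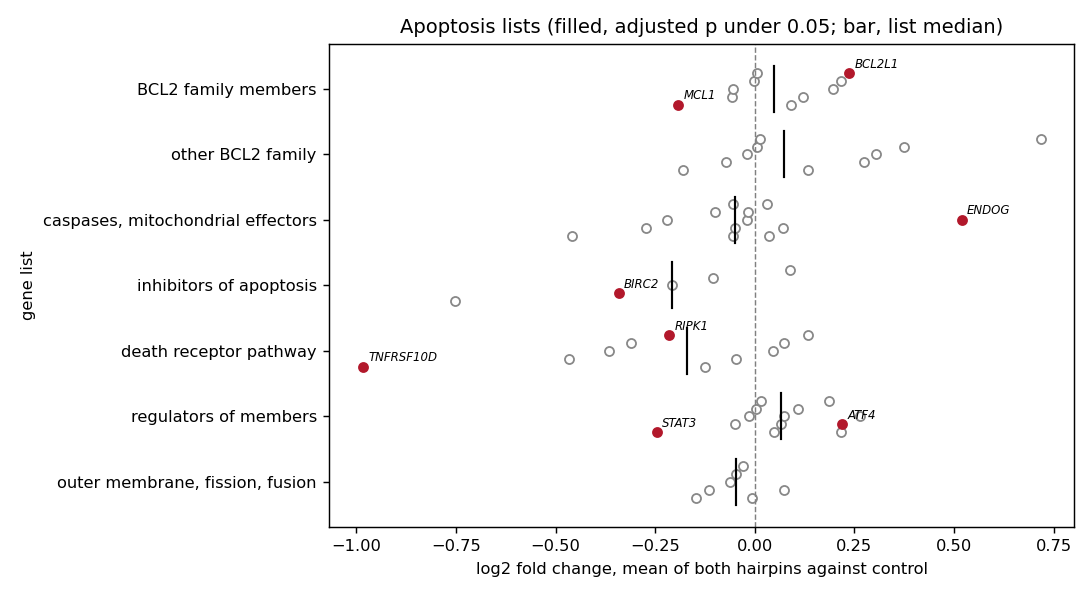
Log2 fold change in the mean of both hairpins against control for each tested gene of 7 apoptosis lists (points, spread vertically only to keep them apart), with each list's median as a bar; filled points passed an adjusted p of 0.05 and are named. Each list drawn has at most 2 filled points, among them TNFRSF10D at -0.98 and ENDOG at 0.52.

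The genes whose pattern over the 9 libraries was most like that of each called member were found by the root mean square difference of centred log2 CPM, among 11030 genes with a mean of at least 5 CPM. For BCL2L1 these were SZRD1 (0.0203), FAM234A (0.0361) and MARCKSL1 (0.0422), where the median gene differed by 0.188. For MCL1 they included UTP25 (0.0352) and PGM3 (0.0372), where the median was 0.18. SZRD1, the closest of all, averaged 120.3 CPM in control, 147.0 CPM with shLMO2-1 and 139.5 CPM with shLMO2-2.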

How the data were processed

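Polyadenylated RNA was selected from MDA-MB-468 cells and made into libraries with the NEBNext Ultra II kit, per the labels' protocols. The authors deposited 1 table of estimated counts per gene, made from the reads before deposit, for 56809 genes and 9 libraries; between 11.7% and 12.8% of a library's values were not whole (tolerance 0.0005). Salmon 0.12, DESeq2 1.22.2 and GRCh38.p12 are named in the submitters' processing notes, with no role given; the use of strand is not given in the sources used here. Such estimates are uncertain where genes share sequence. No library was left out, and each was grouped by the plasmid in its labels.

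Counts were rounded and scaled by TMM, filtered with filterByExpr (minimum count 10, minimum total 15; LMO2 was kept in addition) and tested with edgeR 4.0.16 in R 4.3.3 by the quasi-likelihood F-test, with 3 groups in 1 fit and Benjamini-Hochberg adjustment over 14709 genes. The mean of both hairpins is the average of the 2 hairpin contrasts. Calls had an adjusted p under 0.05, and intervals are 95%. CPM values use the same scaling, and log2 CPM a prior count of 2. Alternatives were other scalings and filters, DESeq2 1.42.0, limma-voom (limma 3.58.1), other samples or covariates, and leaving out each library. Between replicates, chi-square per gene was 5.18 to 29.5 over 11937 genes, where counting noise gives about 1, so no 2 libraries were counted as 1. The highest values, 29.5 and 20, were of control library 1 against control libraries 2 and 3, which gave 6.72 against each other. Positions, lengths and overlaps are from GENCODE 29 (GRCh38), and near-identical stretches (at least 95% over at least 200 bases) were found with BLAST 2.17.0. Motifs were searched on both strands.

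The members and lists were chosen with earlier results of these data known, so no list gives independent support. Genes were named by a fixed rule: LMO2, all members, the tested relatives of the family, up to 4 called genes of each list with the largest change, and the 3 genes most like each called member. ESR1, CD68, KRT5, CDH1, EPCAM and the genes too low to test were named in addition, after values were seen. Some genes and 1 list that these rules would name are not reported here. The libraries held 15494486 to 23069456 estimated counts each, and the uncertainty of the estimates themselves was not part of the tests.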

Additional observations from a re-analysis of the deposited data

How the results depend on the processing

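Each comparison was recomputed under up to 19 alternatives, of which 9 left out 1 library. The number of members called moved as follows. With shLMO2-1 it was 1, and became 2 under total counts alone, DESeq2 and the replicate block, and 0 with only the groups compared; leaving out a library gave 0 to 1. With shLMO2-2 it was 0, and became 1 under total counts alone, DESeq2 and the replicate block; leaving out a library gave 0 each time. In the mean it was 2, and became 1 with GC content and length trends removed; leaving out a library gave 0 to 2. Between the hairpins it stayed 0.

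Over all genes, the main counts of calls were 1239 with shLMO2-1, 1320 with shLMO2-2, 1823 in the mean and 113 between the hairpins. The replicate block gave 2214, 2377, 3024 and 257 in that order. With only the groups compared they were 695, 776 and, between the hairpins, 189. Between the hairpins, no filter on low counts gave 378, DESeq2 310 and GC content and length trends removed 184. Leaving out a library gave 546 to 1397, 494 to 1243, 947 to 1592 and 38 to 239. No other setting moved these counts by more than 1.5 times. The cause of these shifts was not tested; the block and the fits on fewer libraries also change the residual degrees of freedom.

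Signs turned only in values that passed no test. With GC content and length trends removed, log2 fold changes turned to -0.0049 (BAK1) and 0.053 (PMAIP1) with shLMO2-1, 0.0537 (BCL2) and -0.087 (BAD) with shLMO2-2, and -0.0785 (BAK1), 0.0901 (PMAIP1), -0.0351 (BAD) and -0.0843 (BCL2L12) in the mean. Total counts alone gave -0.0047 (BCL2L11, shLMO2-1), -0.0371 (BAK1, mean), -0.0347 (BCL2L12, mean), -0.032 (BNIP3L, mean) and -0.0027 (MCL1, between the hairpins). Upper-quartile scaling gave -0.0002 (BAK1, mean) and 0.0078 (BBC3, between the hairpins). No filter gave 0.0012 (PMAIP1, mean) and 0.0024 (BBC3, between the hairpins), and at least 10 counts in every library gave -0.0026 (BAK1, mean) and -0.0015 (BCL2L12, mean). limma-voom gave 0.0195 (BCL2, shLMO2-2), 0.0091 (PMAIP1, mean) and 0.0366 (HRK, mean), and the replicate block 0.0025 (BCL2, shLMO2-2) and 0.008 (HRK, mean).

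Leaving out 1 library at a time turned the sign of the following values. With shLMO2-1 the log2 fold changes ranged from -0.0539 to 0.4171 for BCL2, -0.0451 to 0.1431 for BAK1, -0.0035 to 0.06 for BCL2L11, -0.1473 to 0.0922 for BBC3 and -0.1407 to 0.0679 for PMAIP1. With shLMO2-2 the log2 fold changes ranged from -0.1816 to 0.1955 for BCL2, -0.1702 to 0.0196 for BAK1, -0.1498 to 0.0897 for BBC3 and -0.0476 to 0.1714 for PMAIP1. In the mean the log2 fold changes ranged from -0.0718 to 0.3063 for BCL2, -0.1076 to 0.0814 for BAK1, -0.1486 to 0.0909 for BBC3, -0.0881 to 0.1196 for PMAIP1, -0.2855 to 0.2 for HRK, -0.1612 to 0.0959 for BCL2L12 and -0.0118 to 0.0395 for BNIP3L. Between the hairpins the log2 fold changes ranged from -1.0019 to 0.449 for LMO2, -0.389 to 0.0354 for BCL2, -0.0264 to 0.0408 for MCL1, -0.043 to 0.026 for BBC3 and -0.0903 to 0.0607 for BAD.

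The main fit did not treat the replicate numbers as pairs, and nothing in the labels says that a number marks a shared batch. Of 9 same-numbered pairs, 6 correlated over 0.1, with a range of -0.182 to 0.623. Pairs numbered 1 gave 0.623, 0.519 and 0.613, and those numbered 3 gave 0.456, 0.427 and 0.558. Those numbered 2 gave -0.115, -0.182 and 0.0283, and control library 2 correlated best with number 3 of each hairpin (0.539 and 0.46). The source of this partly shared pattern was not tested. The block combined with GC content and length was planned for paired numbers and was not run. Among LMO2 and the 10 members, depth limited LMO2 most, at 35 counts or fewer, then BBC3 and BCL2. With 3 libraries a group, small changes may have gone undetected, and a call asked for more than a 95% interval that excludes 0. For BCL2L1 with shLMO2-2 the log2 interval was 0.0489 to 0.3374, but edgeR made no call (adjusted p = 0.0937).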
